A study of Mus musculus with 4 samples.

Results

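Histamine receptors and the enzymes of histamine metabolism were described here by 5 genes, chosen as a list of symbols and matched to their Ensembl gene IDs. These were Hrh1, Hrh2 and Hrh3, which encode the H1, H2 and H3 receptors, Hdc, which encodes the enzyme that makes histamine, and Hnmt, which encodes the enzyme that inactivates it. They were 5 of the 26328 genes listed in at least 1 of the 4 samples, and all 5 were listed in every sample. Hippocampal poly(A) RNA of wild-type (WT) and Lsd1 knock-in (KI) mice was sequenced, in 2 samples of each, to compare their gene expression. The mice were male C57BL/6. In KI mice, the serine of the histone demethylase LSD1 that PKCα phosphorylates was replaced by alanine, and no promoter or Cre driver that would limit the change to some cells was named. WT and KI littermates of 8 to 15 weeks were used for the behavioural experiments, and the age of the mice sequenced was not given separately. No treatment was named for either group. The labels number 2 replicates in each group without saying that each came from a separate mouse, so p-values measure only the spread between these samples.

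Histamine in the brain is made by neurons of the tuberomammillary nucleus of the hypothalamus, which send axons to most of the forebrain, the hippocampus included. H1 receptors couple to Gq and phospholipase C, H2 receptors to Gs and adenylyl cyclase, and H3 receptors to Gi/o. H3 receptors sit largely on nerve terminals, where they reduce the release of histamine and of other transmitters. Synaptic histamine is not taken back into the nerve cell by a transporter of its own but is methylated by HNMT, and the product is then oxidised by monoamine oxidase B.

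The sequences before the annotated starts of the 2 receptor genes whose KI values lay above their WT values are shown first. The Hrh1 window shown is that of the outermost of its 4 RefSeq starts. They come from RefSeq (GRCm38.p6), 5′ to 3′ on the strand of the gene, with the bases of the GENCODE gene itself left out. The Hrh3 sequence is chr2:180104489-180104657, minus strand, and the Hrh1 sequence is chr6:114397686-114397935, plus strand. Capitals mark a match to the 7 letters GGACAGC, the right part of the element bound by the repressor REST, here read on the opposite strand as GCTGTCC.
Hrh3: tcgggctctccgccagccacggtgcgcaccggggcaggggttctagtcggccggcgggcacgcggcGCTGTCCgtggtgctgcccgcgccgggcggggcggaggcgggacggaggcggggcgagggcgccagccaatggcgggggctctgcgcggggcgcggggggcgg
Hrh1: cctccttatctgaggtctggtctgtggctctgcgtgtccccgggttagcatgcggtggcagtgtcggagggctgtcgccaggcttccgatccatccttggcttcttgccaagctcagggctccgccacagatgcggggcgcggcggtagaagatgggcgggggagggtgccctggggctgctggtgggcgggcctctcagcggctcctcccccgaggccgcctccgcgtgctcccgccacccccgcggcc
RefSeq gave 9 promoter entries for the 5 genes, and 250 bases before each start were searched on both strands. The Hrh3 window had 80.8% G and C and 42 CpG, and the Hrh1 window shown had 71.2% and 21 CpG, against medians of 52.4% and 6 CpG over the 32851 promoters of the table. The other 3 Hrh1 windows had 78.4%, 49.6% and 51.2% G and C, with 32, 3 and 1 CpG, so the windows of this gene lay on both sides of the median. The 2 Hrh2 windows, which overlap, had 60% and 59.6% with 9 and 10 CpG, the Hnmt window had 38.8% with 2 CpG, and the Hdc window 48.8% with 2 CpG. GGACAGC was found in 1 of the 9 windows, that of Hrh3, with its first base 184 bases before the start, and in 5.28% of all promoters. The left part of the REST element, TTCAGCACC, was found with all its letters in 0 of the 9 and in 0.301% of all. Directly after the capitals, however, the Hrh3 sequence reads gtggtgctgcc. Its ggtgctg is CAGCACC on the opposite strand, the left part without its first 2 letters, next to the right part. The share of all promoters that hold both parts in this looser form was not counted. The E-box CACGTG was found in 0 of the 9 and in 6.02% of all. A match in letters is a description of the window and shows no binding.

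Levels are given in RPKM, the reads on a gene divided by its exon length in kb and by the depth of the library, so they can be compared between genes. The depth worked out from the steps in which values rise was lowest in WT replicate 2, with 8827967 mapped reads, and reached from 13414957 to 14949756 in the other 3 samples. Intervals given below are exact 95% Poisson intervals of the reads behind a value, expressed in RPKM, and cover counting error only. Kdm1a, which encodes LSD1, was at 11.6 and 11.2 RPKM in WT and at 10.97 and 11.2 RPKM in KI samples (log2 fold change -0.04, adjusted p = 0.872 from limma). The mutation changes a residue and not the dose of the gene, so this level does not check the genotype labels. Of 12 hippocampal markers none was at 0, and the most abundant, Neurod6, was at 114 to 129 RPKM in the 4 samples.

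Across the 18436 genes that reached 0.5 RPKM in 2 or more samples, limma on log2(RPKM + 1) called 0% past an adjusted p of 0.1 with a change of at least 1.2-fold, while 1774 genes had an unadjusted p under 0.05. Of the 5 histamine genes 4 entered this test and 0 of them were called, with adjusted p-values from 0.490 to 0.893. Hrh1 and Hrh3 were the 2 of the 4 with an unadjusted p under 0.05. Hdc stayed under the limit of 0.5 RPKM and was not tested. Both KI samples exceeded both WT samples for 2 of the 4 tested, Hrh1 and Hrh3, and for 24.0% of all genes tested. Both KI values lay below both WT values for 1 of the 4, Hrh2, and for 18.1% of all genes tested. These are counts over 4 genes and were not tested against the shares of all genes. Hrh1 and Hrh3 were also reported as upregulated in KI by the study from these same 4 samples, so their direction here is not independent evidence. The study tested with edgeR, so its calls and the 0 calls of limma on RPKM come from unlike methods. With 2 samples against 2, an exact permutation test of a single gene cannot give a p under 0.333. In whole tissue, a change in the number of cells that express a gene and a change in RNA per cell cannot be told apart.

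**Figure D1:**
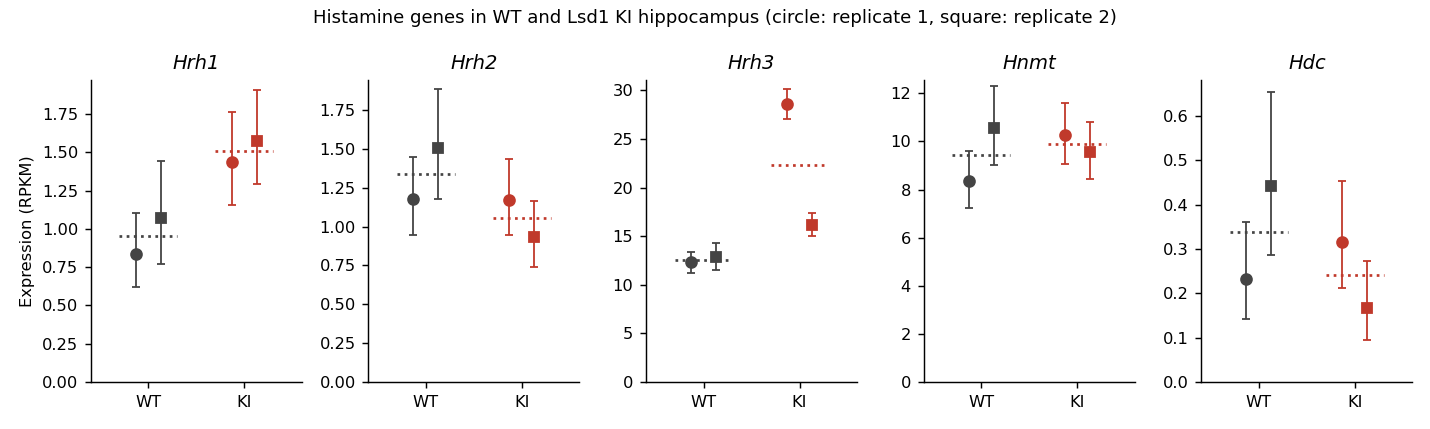
Expression in RPKM of the 5 histamine genes, 1 panel each with its own axis from 0, in 2 WT samples (grey) and 2 KI samples (red); bars are exact 95% Poisson intervals of the reads and dotted lines are group means. Both KI values were above both WT values for Hrh1 (0.838 and 1.07 against 1.44 and 1.58 RPKM) and Hrh3 (12.3 and 12.8 against 28.6 and 16.2 RPKM), and the groups overlapped for Hnmt and Hdc.

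Hdc (ENSMUSG00000027360, chr2:126593667-126619299, minus strand), which encodes histidine decarboxylase, the only enzyme that makes histamine, was the least expressed of the 5 genes. It was at 0.233 and 0.443 RPKM in the WT samples and at 0.316 and 0.168 RPKM in the KI samples. The groups overlapped, with the highest value in WT replicate 2 and the lowest in KI replicate 2. These values rest on 20, 25, 29 and 16 reads in the same order. The interval of WT replicate 2, 0.287 to 0.654 RPKM, lay above that of KI replicate 2, 0.0958 to 0.272 RPKM, and overlapped those of the other 2 samples. The WT mean was 0.338 ± 0.148 RPKM and the KI mean 0.242 ± 0.105 RPKM (SD, n = 2 each, exact permutation p = 0.667, two-sided). When genes of low RPKM were kept in the limma fit, the log2 fold change of Hdc was -0.11 with a standard error of 0.12 (adjusted p = 0.818). No difference in Hdc between the groups was detected.

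Hypothalamic tissue, in which histamine neurons lie, and mast cells were looked for through markers. Of 8 markers of the tuberomammillary nucleus and the hypothalamus, 1 (Sim1) was listed in no sample and Hcrt, which encodes orexin, was at 0 in WT replicate 1. Their summed level was 5.02 and 6.47 RPKM in WT and 5.54 and 4.58 RPKM in KI samples, of which Lhx9 gave between 2.22 and 2.99 RPKM. The sum was highest in WT replicate 2 and lowest in KI replicate 2, the order in which Hdc also had its highest and lowest value. Among the single markers only Agrp had the same order, with 1.55 and 0.508 RPKM in these samples. Hcrt, Pmch and Hcrtr2 were highest in KI replicate 1 instead (0.186, 0.371 and 0.542 RPKM). Hcrt and Pmch rest on at most 4 reads in a sample. Pomc was lowest in WT replicate 1 (0.444 RPKM), Lhx9 was lowest in KI replicate 1, and Wif1 was highest in KI replicate 2. The part of hypothalamic tissue in the level of Hdc was not tested. Mast cells, the other main source of histamine, were barely represented. Of 7 mast cell markers 3 were listed in no sample, all 7 were at 0 in at least 1 sample, and their sum was at most 0.289 RPKM, in WT replicate 2.

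Hrh1 (ENSMUSG00000053004, chr6:114397936-114483296, plus strand), which encodes the excitatory H1 receptor, was at 0.838 and 1.07 RPKM in the WT samples and at 1.44 and 1.58 RPKM in the KI samples. Both KI samples were thus above both WT samples, and the samples of each group were closer to each other than to any of the other group. The reads behind these values were 50 and 42 in WT and 92 and 105 in KI. The interval of WT replicate 2, from 0.771 to 1.44 RPKM, overlapped those of both KI samples, from 1.16 to 1.76 and from 1.29 to 1.91 RPKM, whereas that of WT replicate 1, from 0.622 to 1.10 RPKM, lay below those of both KI samples. The means, 0.953 ± 0.164 and 1.51 ± 0.0995 RPKM (SD, n = 2 each), stood in a ratio of 1.58. On the log2(RPKM + 1) scale, which understates changes of genes near 1 RPKM, the fold change was 0.36 with a standard error of 0.12 and did not pass the test (unadjusted p = 0.0348, adjusted p = 0.490 from limma). With a pseudocount of 0.1 in place of 1 it was 0.62 (adjusted p = 0.508).

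Hrh2 (ENSMUSG00000034987, chr13:54192129-54236180, plus strand), which encodes the H2 receptor, was at 1.18 and 1.503 RPKM in the WT samples and at 1.17 and 0.935 RPKM in the KI samples. Both KI values were below both WT values, but KI replicate 1 and WT replicate 1 were nearly equal, so the groups were separated by less than the distance between the 2 samples of either group. The WT mean was 1.34 ± 0.231 RPKM and the KI mean 1.05 ± 0.167 RPKM (SD, n = 2 each), and the log2 fold change was -0.19 with a standard error of 0.14 (adjusted p = 0.702 from limma). It went to -0.09 without WT replicate 2, to -0.10 without KI replicate 2, and to -0.29 without WT replicate 1. The intervals of all 4 samples met between 1.18 and 1.43 RPKM except that of KI replicate 2, which ended at 1.17 RPKM. The intervals rest on 88, 74, 94 and 78 reads, from an exon length of 5578 bases that gave whole reads, but a length of 2789 bases and 44, 37, 47 and 39 reads gave the same values, and the intervals would then be wider.

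The order of Hrh1 and Hrh2 differed between the groups. Hrh1 was at 0.712 times the RPKM of Hrh2 in WT replicate 1 and at 0.711 times in WT replicate 2, and at 1.23 and 1.69 times in KI replicates 1 and 2. The Gs-coupled receptor thus had the higher level in both WT samples and the Gq-coupled receptor the higher level in both KI samples. The log2 ratio of Hrh1 to Hrh2 was 1.02 higher in KI than in WT (exact permutation p = 0.333, two-sided, the smallest that this design allows). Within single samples, the intervals of both genes overlapped in WT replicate 1, WT replicate 2 and KI replicate 1, and did not in KI replicate 2, with 1.29 to 1.91 RPKM for Hrh1 against 0.739 to 1.17 RPKM for Hrh2. This ratio was singled out after the values were seen.

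Hrh3 (ENSMUSG00000039059, chr2:180099465-180104488, minus strand), which encodes the presynaptic H3 receptor, was the most expressed of the 5 genes in every sample. It was at 12.3 and 12.8 RPKM in the WT samples and at 28.6 and 16.2 RPKM in the KI samples. Both KI values were above both WT values, and KI replicate 1 stood 1.77 times above KI replicate 2. The reads behind these values were 519 and 357 in WT and 1292 and 760 in KI, the highest numbers among the 5 genes. The intervals of the WT samples, 11.3 to 13.4 and 11.6 to 14.3 RPKM, overlapped. They lay below that of KI replicate 2, 15.03 to 17.4 RPKM, which lay below that of KI replicate 1, 27.02 to 30.2 RPKM. The 2 KI samples thus differed by more than counting error, and their mean of 22.4 ± 8.77 RPKM was set against 12.6 ± 0.394 RPKM in WT (SD, n = 2 each, ratio 1.78). The log2 fold change was 0.73 with a standard error of 0.26 (unadjusted p = 0.0434, adjusted p = 0.507 from limma). It was 0.34 without KI replicate 1 (adjusted p = 0.721) and 1.12 without KI replicate 2 (adjusted p = 0.592), so its size rests on which KI sample is taken.

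Hrh3 shares bases with a gene on the opposite strand, Gm17180 (ENSMUSG00000090589, chr2:180099913-180101502). Of the 435 exon bases of Gm17180, 349 (80.2%) are also exon of Hrh3, where all 349 are coding, and they make up 11.1% of the 3146 exon bases of Hrh3. Gm17180 was at 35.3 and 40.4 RPKM in WT and at 78.8 and 46.3 RPKM in KI samples, higher in RPKM than Hrh3 in every sample. KI replicate 1 was again highest and both KI values were above both WT values (log2 fold change 0.66 with SE 0.26 in limma, adjusted p = 0.518). The RPKM of Gm17180 was 2.87, 3.14, 2.76 and 2.86 times that of Hrh3 in WT replicates 1 and 2 and KI replicates 1 and 2, a narrow range beside the 12.3 to 28.6 RPKM of Hrh3 itself. The library kit named does not mark strand and the strand setting of the counting was not given in the sources used here, so reads of the 2 genes over the shared bases cannot be told apart.

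**Figure D2:**
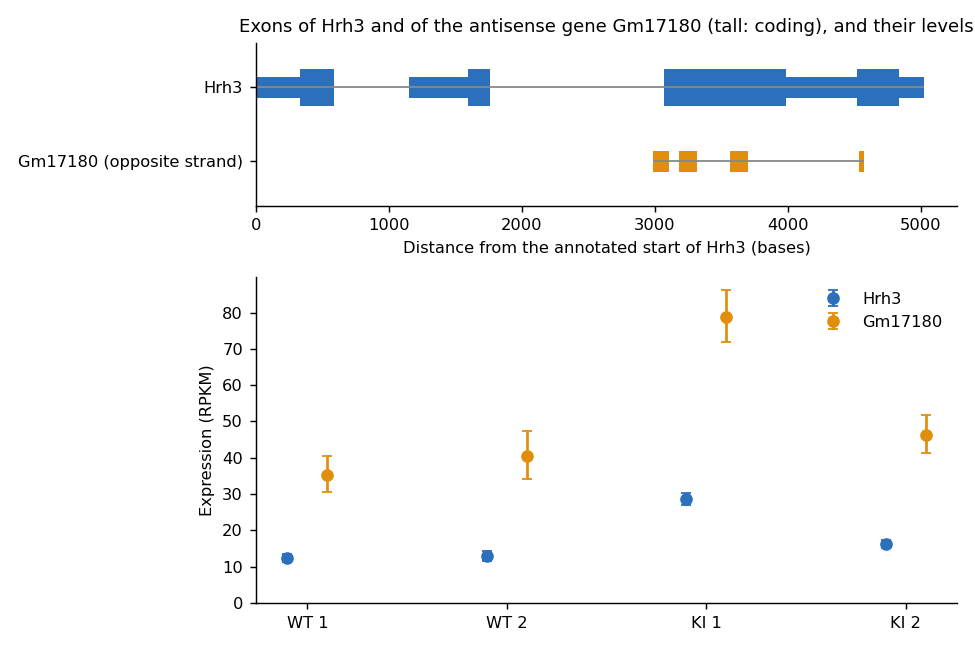
Top, exons of Hrh3 and of Gm17180 on the opposite strand against the distance in bases from the annotated start of Hrh3 (tall boxes, coding bases of Hrh3). Bottom, RPKM of both genes in each sample with exact 95% Poisson intervals: Gm17180 was at 35.3 to 78.8 RPKM and Hrh3 at 12.3 to 28.6 RPKM, and both were highest in KI replicate 1.

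The study also measured Hrh1 and Hrh3 by qRT-PCR in hippocampal tissue and reported both as higher in KI. In cultured hippocampal neurons it reported higher mRNA of both after a PKCα inhibitor, Go6976. Those values were not used here. Its Hrh3 primers are shown because they mark a stretch of the receptor that is free of the shared exon bases. Forward (chr2:180100653-180100671) and reverse (chr2:180100565-180100585) both lie in coding sequence of 1 exon in GRCm38 and enclose a product of 107 bases, found in 5 of the 8 GENCODE transcripts of Hrh3. Neither primer has a base in an exon of Gm17180, though the product lies within the span of that gene.
Hrh3 forward: gcgtccccgactactggta
Hrh3 reverse: gaaggctctacggaagctgta
The Hrh1 pair, chr6:114480967-114480985 and chr6:114481008-114481029, encloses 63 bases in the coding exon and was found in 4 of the 5 transcripts of Hrh1. Neither pair spans an exon junction.
Hrh1 forward: tgtccgggttgcacttgaa
Hrh1 reverse: ctgccatgatacaacccaactg

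An antisense gene also overlaps Hrh2. Gm16578 shares 145 exon bases with Hrh2, 2.44% of the exon bases of the receptor gene. It was at 0.761 and 1.01 RPKM in WT and at 0.798 and 0.768 RPKM in KI samples, with overlapping groups (adjusted p = 0.889 from limma).

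Hnmt (ENSMUSG00000026986, chr2:24002910-24049394, minus strand), which encodes histamine N-methyltransferase, was at 8.34 and 10.6 RPKM in the WT samples and at 10.3 and 9.57 RPKM in the KI samples. Both KI values lay between the WT values, so the groups overlapped. The WT mean was 9.46 ± 1.57 RPKM and the KI mean 9.91 ± 0.490 RPKM (SD, n = 2 each). The log2 fold change was 0.07 with a standard error of 0.12 (adjusted p = 0.893 from limma), on 165 to 261 reads a sample. The direction turned when WT replicate 1 was left out (log2 fold change -0.08) and the value was 0.22 without WT replicate 2. Per length, Hnmt was expressed 35.8, 23.8, 32.5 and 57.1 times as highly as Hdc in WT replicates 1 and 2 and KI replicates 1 and 2.

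In order of RPKM, Hrh3 stood first and Hnmt second in all 4 samples, Hrh1 and Hrh2 followed at much lower levels, and Hdc was last. Hrh3 was 1.47 and 1.22 times the level of Hnmt in WT and 2.78 and 1.69 times in KI samples (exact permutation p = 0.333 for the log2 ratio, two-sided). In WT replicate 2 the intervals of these neighbours overlapped, with 11.6 to 14.3 RPKM for Hrh3 and 9.02 to 12.3 RPKM for Hnmt. Hrh3 was 14.7 and 12.0 times the level of Hrh1 in WT and 19.9 and 10.2 times in KI, so the ratio of the 2 receptors had overlapping groups.

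**Figure D3:**
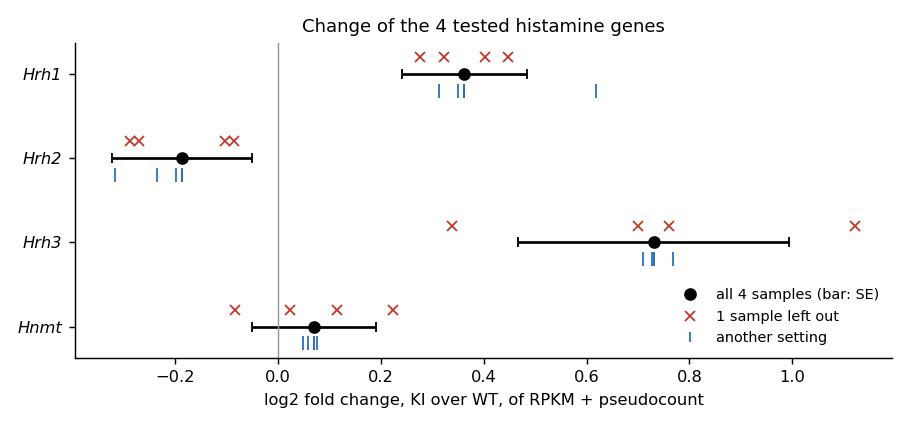
Log2 fold change, KI over WT, of the 4 tested histamine genes (black points, bars 1 SE of limma), with values when 1 sample was left out (red crosses) and under other settings (blue ticks). Hrh3 spread most, from 0.34 without KI replicate 1 to 1.12 without KI replicate 2, Hrh1 stayed above 0 and Hrh2 below 0 in every setting shown, and Hnmt crossed 0.

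The genes whose pattern over the 4 samples was nearest to each member were listed by Euclidean distance of centred log2(RPKM + 1) among 16080 genes with a mean of at least 1 RPKM. For Hrh3 the nearest was the antisense gene Gm17180 at a distance of 0.114, where the spread of Hrh3 about its own mean was 0.918. Gm23880 (5.52, 6.29, 14.2 and 8.67 RPKM in WT replicates 1 and 2 and KI replicates 1 and 2) followed at 0.145 and Mir135a-2 at 0.156. For Hrh1 they were Gm5263 (0.0287), Ltk (0.0311) and Slc10a3 (0.0399), for Hrh2 they were Bnip3l-ps, Gm27855 and Alpl (0.0195 to 0.0213), and for Hnmt they were Znrd1, Zfp395 and Bloc1s1 (0.0197 to 0.0292). With 4 points among so many genes, some lie near any pattern.

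Genes that carry, take up or break down histamine and other amines were read from a list of 9. Hrh4, which encodes the H4 receptor found mainly on blood cells, was listed in no sample. The test took in 4 of the 9, of which 0 were called. In limma 2 of the 4 had an unadjusted p under 0.05, beside 1774 of all 18436 genes. Slc18a2, which encodes VMAT2, the carrier that loads histamine and monoamines into vesicles, was at 2.23 and 1.82 RPKM in WT and at 3.29 and 2.78 RPKM in KI samples. Both KI values were above both WT values, as for Hrh1 and Hrh3, but the gene did not pass the test (log2 fold change 0.42 with SE 0.12 in limma, adjusted p = 0.478). Slc18a2 was also chosen by the study on these samples. Slc29a4, which encodes PMAT, a low-affinity carrier that takes up histamine, was at 14.3 and 14.5 RPKM in WT and at 10.9 and 12.4 RPKM in KI samples. Both KI values lay below both WT values (log2 fold change -0.29 with SE 0.08 in limma, adjusted p = 0.439). Maob, the oxidase that acts after HNMT, overlapped between groups at 7.07 to 9.38 RPKM, and so did Maoa at 7.29 to 7.67 RPKM. Slc22a3, which encodes a further low-affinity carrier of histamine, was at 0.107 and 0.129 RPKM in WT and at 0.159 and 0.268 RPKM in KI samples, so that both KI values were above both WT values at a level too low for the test. Slc22a2, a related carrier, was at 0.141 RPKM or less in every sample, and Aoc1, the diamine oxidase of peripheral tissues, was at 0.0476 RPKM or less.

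The signalling genes beyond each receptor showed 0 calls in 3 lists. Of 12 tested genes of the Gq pathway used by H1 receptors, both KI samples exceeded both WT samples for 3 and fell short of them for 4, with a median log2 fold change of -0.01. Itpr3, a calcium release channel, had the highest change (log2 fold change 0.26, adjusted p = 0.632 from limma). Gnaq, the α subunit itself, was at 52.5 and 48.5 RPKM in WT and at 45.7 and 46.3 RPKM in KI samples (log2 fold change -0.13, adjusted p = 0.548 from limma). Of 17 genes of the Gs pathway used by H2 receptors, 7 lay above and 4 below, with a median of 0.08. Prkar1a, a regulatory subunit of protein kinase A, was the most abundant at 157 to 163 RPKM. Adcy7, an adenylyl cyclase, had the highest change of these, from 1.06 and 1.13 RPKM in WT to 1.58 and 1.74 RPKM in KI samples (log2 fold change 0.35, adjusted p = 0.487 from limma), and Adcy9 the lowest, with 20.9 and 20.8 RPKM against 19.4 and 18.1 RPKM (log2 fold change -0.15, adjusted p = 0.516). Of 17 genes of the Gi/o pathway used by H3 receptors, 4 lay above and 3 below, with a median of 0.01. Gnao1, the most abundant of them, was at 108 and 109 RPKM in WT and at 118 and 113 RPKM in KI samples. Gnb4, a G protein β subunit, had the highest change of this list (log2 fold change 0.16, adjusted p = 0.641 from limma). Kcnj6, a potassium channel opened by Gi/o-coupled receptors, was at 9.24 and 7.88 RPKM in WT and at 7.11 and 7.05 RPKM in KI samples (log2 fold change -0.24, adjusted p = 0.516). The median over all genes tested was 0.01. At an unadjusted p under 0.05, limma had 0 of the 12 Gq, 4 of the 17 Gs and 0 of the 17 Gi/o genes. Over all genes tested it had 1774 of 18436, and the lists were not tested against that share.

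Of 31 other aminergic receptor genes (dopamine, serotonin, adrenergic and muscarinic receptors), 24 were tested. Among these 24, 9 lay above and 5 below, 0 were called, and the median log2 fold change was 0.11. In limma 3 of the 24 had an unadjusted p under 0.05, beside 1774 of all 18436 genes. Chrm1, the M1 muscarinic receptor, was the most abundant at 36.9 to 40.5 RPKM. Drd2, the D2 dopamine receptor, a Gi/o-coupled receptor like the H3 receptor, was at 1.30 and 1.24 RPKM in WT and at 2.51 and 2.46 RPKM in KI samples. Its groups were far apart beside the distance within each, but it did not pass the test either (log2 fold change 0.62 with SE 0.10 in limma, adjusted p = 0.307), and it too was chosen by the study on these samples. Adra1b, an α1 adrenergic receptor, had the lowest change, with 0.992 and 0.871 RPKM in WT and 0.637 and 0.574 RPKM in KI samples (log2 fold change -0.27, adjusted p = 0.557 from limma). Over the 5 lists together, 24 of 74 tested genes (32.4%) lay above and 17 (23.0%) below, beside 24.0% and 18.1% of all genes.

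**Figure D4:**
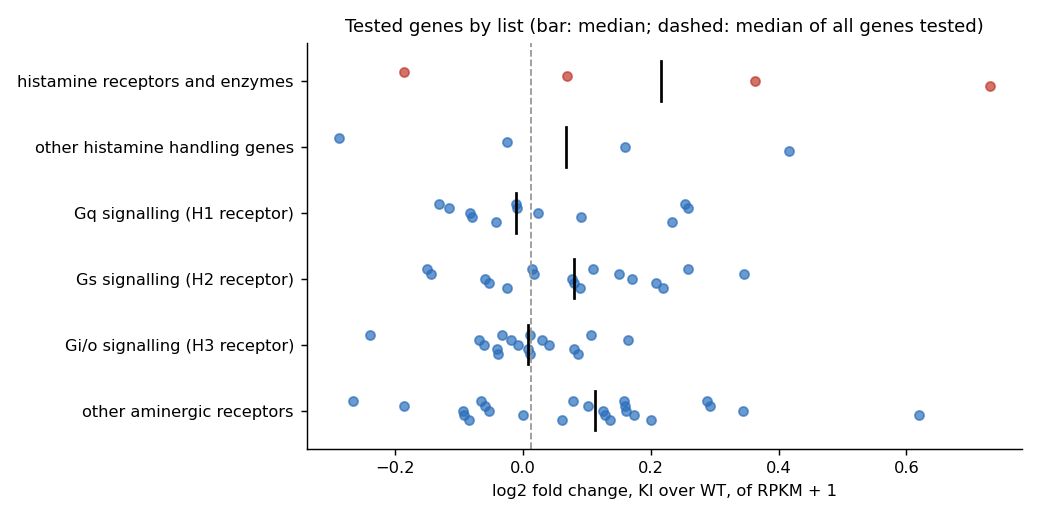
Log2 fold change, KI over WT, of log2(RPKM + 1) for each tested gene (points) of the histamine genes (red) and of 5 lists of related genes (blue), with list medians as black bars and the median of all 18436 genes, 0.01, as a dashed line. Single genes of the 5 lists ran from -0.29 (Slc29a4) to 0.62 (Drd2) and the 4 histamine genes from -0.19 (Hrh2) to 0.73 (Hrh3), and the medians were -0.01 to 0.11 for the lists and 0.22 for the histamine genes.

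Markers of tissue next to the hippocampus were set beside these values, since both receptors with higher KI values are expressed outside the hippocampus too. Of all genes tested, 24.0% had both KI values above both WT values and 18.1% had both below. The marker counts were not tested against these shares. Of 7 neocortex markers, 5 had both KI values above both WT values and 0 below, with sums of 55.0 and 59.6 RPKM in WT and 65.2 and 62.4 RPKM in KI samples and none at 0. Of 8 striatum markers 3 lay above and 2 below, with sums of 50.4 and 48.4 RPKM in WT and 54.3 and 50.7 RPKM in KI. Of 7 thalamus markers, 6 of which were tested, 1 lay above and 1 below, with sums of 40.4 and 36.2 RPKM in WT and 42.0 and 39.3 RPKM in KI. Of 12 hippocampus markers 1 lay above, 5 below, and 6 had overlapping groups. The 1 above was Rgs14, at 42.1 and 42.5 RPKM in WT and at 46.5 and 45.6 RPKM in KI samples. Prox1 of dentate granule cells fell most of the 12, with 17.3 and 16.9 RPKM in WT and 10.2 and 13.1 RPKM in KI samples. Prox1 was lowest in KI replicate 1, the sample with the highest Hrh3, and the neocortex, striatum and thalamus sums were highest in that sample. The members of the thalamus list did not move together. Prkcd (12.4 RPKM) and Slc17a6 (6.33 RPKM) had their highest values in KI replicate 1. Tcf7l2, Lef1, Ntng1 and Rora had their lowest values there, and Calb2 had neither. Sums of astrocyte markers were 462 and 453 RPKM in WT and 476 and 490 RPKM in KI, with 3 of 6 above and 1 below. Oligodendrocyte markers, with 0 of 6 above or below, ranged from 775 to 1026 RPKM in sum, and the sums of microglia (57.6 to 61.3 RPKM, 3 of 6 above and 1 below) and endothelium markers (35.6 to 41.0 RPKM, 3 of 6 above and 2 below) had overlapping groups. The part of these differences in the values of Hrh1 and Hrh3 was not tested.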

How the data were processed

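Total RNA of mouse hippocampus was made into poly(A) libraries, and read pairs were aligned by the authors to mm10 with GSNAP (CASAVA is also named in the submitters' processing notes) and counted on Ensembl release 74 genes. Each sample's deposited file holds RPKM, and replicates were not pooled. The authors used edgeR, which needs counts.

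RPKM was tested here with limma (version 3.58.1, R version 4.3.3, with a mean-variance trend) on log2(RPKM + 1), over genes that reached 0.5 RPKM in 2 or more of the 4 samples, with genes absent from a sample at 0 and Benjamini-Hochberg adjustment over all 18436. No covariate was used. Reads behind a value were worked out from RPKM steps and GENCODE M21 exon lengths. Reads were whole within 0.02 in all 4 samples for 15929 of 25729 genes with a length (61.9%), and they were not tested as counts. The code was tested on simulated data. Python 3.11.15 served for the rest.

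The members and lists were chosen with earlier results of these data known. Beside the members, the rule named in each list the most abundant gene and those with the largest changes, Slc18a2, Maob and Drd2, and the 3 nearest patterns. 1 gene named by this rule is not reported here. Alternatives covered pseudocount, filters, scaling, trend, replicate block and leaving out each sample.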

Additional observations from a re-analysis of the deposited data

How the results depend on the processing

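Across 13 other settings (12 for Hrh1 and Hrh2, which a filter of 1 RPKM in all samples removes), 0 of the 4 tested histamine genes passed the threshold, and Hrh1, Hrh2 and Hrh3 kept their direction. Adjusted p-values ran from 0.282 to 0.730 for Hrh1, 0.604 to 0.913 for Hrh2, 0.201 to 0.765 for Hrh3 and 0.739 to 0.982 for Hnmt. With 1 sample left out in turn, log2 fold changes ran from 0.28 to 0.45 for Hrh1, -0.29 to -0.09 for Hrh2, 0.34 to 1.12 for Hrh3 and -0.08 to 0.22 for Hnmt, whose direction turned without WT replicate 1 (-0.0845). A lone sample is there assumed to vary like the other group. Over all genes, 0 passed in the main comparison, 20 (17 higher, 3 lower in KI) without the mean-variance trend, and 1 with at least 10 reads in every sample, a filter chosen after seeing the data. With the replicate block and that filter together, also chosen afterwards, 52 passed (43 higher, 9 lower). The cause was not tested. The replicate block alone gave 0 genes and adjusted p-values of 0.585 for Hrh1 and 0.553 for Hrh3. Same-numbered samples did not deviate together over all genes (r = -0.02 over 18436 genes). With 2 samples in each group this rests on a single contrast per group, so it cannot decide whether the numbers mark pairs. Single values rest on as few as 16 reads for Hdc and 42 for Hrh1, which sets the width of their intervals.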
